A study of Homo sapiens with 2 samples.

Results

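HES1, DLL1 and MESP2 are 3 human genes of Notch signalling and of the segmentation of the body axis, and they were chosen by their symbols: each has 1 row among the 2005 genes of the authors' deposited table. RNA came from the human embryonic stem cell line HES2, infected either with a lentivirus for a Tfcp2l1 knockdown hairpin (shRNA) or with a scrambled control. TFCP2L1 is a transcription factor that mouse embryonic stem cells use to stay pluripotent. Both cultures grew for 3 passages in medium that held 10% KSR, a serum replacement, plus Activin A (10 ng/ml) and FGF2 (10 ng/ml). Each group was 1 library of 1 line, so nothing below has a replicate check, and every difference is one between these 2 libraries, not between conditions.

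The table holds only genes that the authors called different, each at least 2-fold apart, so the 3 genes had to differ in order to be in it, and their differences are given as a description with no test. It was inferred that 18489 genes had been tested, of which 10.8% were listed, 5.86% as higher and 4.98% as lower in the knockdown library. Levels are in FPKM, reads scaled by the length of the gene and the depth of the library. By inference from the table, about 22730000 (knockdown) and 23440000 (scramble) reads lay behind the levels, and intervals are exact 95% intervals for counting error only. TFCP2L1 itself was at 0.33 FPKM in the knockdown library, against 3.19 FPKM in the scramble library. Of 12 markers of undifferentiated human embryonic stem cells, 2 had a row (16.7%), against 10.8% of all genes tested. Both were lower, against 4.98% of all genes tested listed as lower. They were SOX2 (86.1 FPKM in the knockdown library and 180 FPKM in the scramble library) and PODXL (79.1 and 222 FPKM in the same order). Nothing can be said here of the other 10, POU5F1 and NANOG among them.

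In Notch signalling, a ligand on one cell, such as DLL1, binds a Notch receptor on its neighbour, and the receptor is cut so that its inner part enters the nucleus. There it joins the DNA-binding protein RBPJ and a Mastermind co-activator and switches on genes of the HES and HEY families, which encode repressors with a basic helix-loop-helix (bHLH) domain. HES1 is the best known of these targets, and in mouse neural progenitors it represses its own gene and Dll1. In the mouse presomitic mesoderm, Dll1 and the bHLH factor Mesp2 act in the formation and the front-to-back patterning of the somites.

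The stretch before the start of HES1 is shown because it holds the letters that RBPJ binds, and because HES1 was the member that was higher. It is 250 bases of RefSeq sequence (GRCh38.p14, chr3:194135898-194136147, plus strand) that end at the base before the annotated start, written 5′ to 3′ with TGGGAA, the RBPJ core, in capitals. The same window of MESP2 (GRCh38.p14, chr15:89776082-89776331, plus strand) is given for comparison, before the RefSeq start of that gene, with the core as it reads on this strand, TTCCCA, in capitals.
HES1: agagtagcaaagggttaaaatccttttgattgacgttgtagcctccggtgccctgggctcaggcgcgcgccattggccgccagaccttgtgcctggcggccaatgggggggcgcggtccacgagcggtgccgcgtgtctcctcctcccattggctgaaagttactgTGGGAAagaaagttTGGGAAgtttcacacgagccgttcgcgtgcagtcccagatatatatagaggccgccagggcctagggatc
MESP2: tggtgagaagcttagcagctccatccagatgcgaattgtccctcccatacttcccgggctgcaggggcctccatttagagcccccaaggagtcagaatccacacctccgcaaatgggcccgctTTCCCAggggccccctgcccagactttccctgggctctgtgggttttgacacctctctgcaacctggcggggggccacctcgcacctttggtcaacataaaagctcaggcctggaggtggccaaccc

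HES1 holds the core 2 times on the strand of the gene, at 84 to 79 and at 70 to 65 bases before the start, with 8 bases between them. MESP2 holds it 1 time, on the other strand, at 127 to 122 bases before the start. Among 35116 RefSeq promoters cut to the same length, 20.8% hold the core on either strand at least 1 time and 2.90% at least 2 times. The longer form GTGGGAA, which overlaps the core, is in 5.43% of them and matches 1 time in HES1 and not in MESP2. The N box, CACNAG, bound by HES repressors, matches 3 times in HES1 and not in MESP2, and 32.0% of all windows hold it. The last of these matches, at 58 to 53 bases before the start, overlaps a match to TCACAC, letters of T-box factors, which is in 9.90% of all windows. CTTTGA, of the TCF/LEF factors, and the TATA box letters TATAAA match in neither window, against 11.2% and 10.7% of all promoters. Only that form of the TATA box was searched, so the run tatatata near the end of the HES1 window was not counted. GC made up 59.2% (HES1) and 60.8% (MESP2) of the bases, against a median of 58% over all promoters. These matches describe letters only, and no binding was measured.

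**Figure D1:**
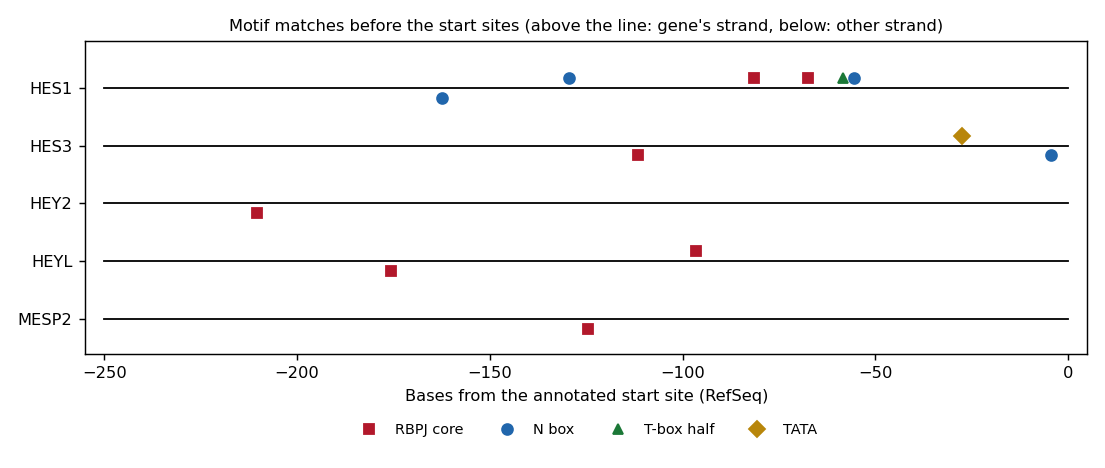
Motif matches in the 250 bases before the annotated start of HES1, 3 further listed HES and HEY genes and MESP2 (horizontal axis: bases from the start site; symbols above a line lie on the strand of the gene, those below it on the other strand). HES1 has 2 RBPJ core matches close together and 3 N box matches, while MESP2 has a single RBPJ core match.

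HES1 (gene ID 3280) encodes a transcriptional repressor that holds progenitor cells undifferentiated in many mouse tissues. It was at 31.3 FPKM in the knockdown library, against 7.52 FPKM in the scramble library. The levels rest on 1002 inferred reads in the knockdown library (29.4 to 33.3 FPKM) and 248 in the scramble library (6.61 to 8.52 FPKM), and the intervals of the libraries lie far apart. The ratio of depth-scaled reads, knockdown over scramble, was 4.18 (interval 3.63 to 4.82), and the log2 ratio of levels with a pseudocount of 0.1 FPKM was 2.04. The authors' deposited table gives HES1 a log2 ratio of 2.06 and a false discovery rate of 1.10e-111, which compares the reads of these libraries. By that ratio HES1 stood at rank 409 of the 1084 higher genes, whose median log2 ratio in the authors' deposited table was 1.70. In level it was at rank 106 of 2005 listed genes in the knockdown library and rank 352 in the scramble library. None of the 31-base words of its longest GENCODE transcript occurs in another gene, and no annotated gene overlaps it (GENCODE v29, GRCh38, chr3:194136145-194138732, plus strand).

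DLL1 (gene ID 28514) encodes a membrane-bound ligand of the Notch receptors. It was at 1.42 FPKM in the knockdown library, on 106 inferred reads (1.16 to 1.72 FPKM), and at 3.08 FPKM in the scramble library, on 238 reads (2.70 to 3.50 FPKM). The knockdown level was the lower one, and the intervals did not overlap. The read ratio was 0.461 (interval 0.363 to 0.581), which is 2.17-fold lower in the knockdown library, and the interval reaches past 0.5 toward a smaller difference. The log2 ratio with the pseudocount of 0.1 FPKM was -1.06. The authors' deposited table gives -1.12 with a false discovery rate of 2.72e-11, close to its limit of 1 on the size of the log2 ratio, and DLL1 was at rank 794 of the 921 lower genes. No 31-base word of DLL1 occurs in another gene. Its span (GENCODE v29, GRCh38, chr6:170282206-170306565, minus strand) overlaps FAM120B on the opposite strand and a long noncoding RNA gene on the same strand, but 0 of its 3226 exon bases lie in an exon of either gene.

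MESP2 (gene ID 145873) encodes a bHLH factor whose mouse counterpart is needed for somite boundaries. It was the lowest of the 3 genes, at 0.14 FPKM in the knockdown library, against 0.80 FPKM in the scramble library. Only 5 inferred reads (0.0455 to 0.327 FPKM) in the knockdown library and 29 reads (0.536 to 1.15 FPKM) in the scramble library lie behind these levels. The read ratio was 0.178 (interval 0.0539 to 0.466), so the knockdown level was 5.61-fold lower, with an interval from 2.15-fold to 18.6-fold. Its log2 ratio depended on the pseudocount, at -1.91 with 0.1 FPKM and -0.66 with 1 FPKM, and the authors' deposited table gives -2.51 with a false discovery rate of 9.40e-05. By the ratio in that table it was at rank 128 of the 921 lower genes. Of its 31-base words, 1.64% also occur in another gene, its neighbour and relative MESP1. No annotated gene overlaps MESP2 (GENCODE v29, GRCh38, chr15:89760591-89778754, plus strand). GENCODE starts MESP2 further upstream than RefSeq does, so the window shown above lies inside the GENCODE span.

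**Figure D2:**
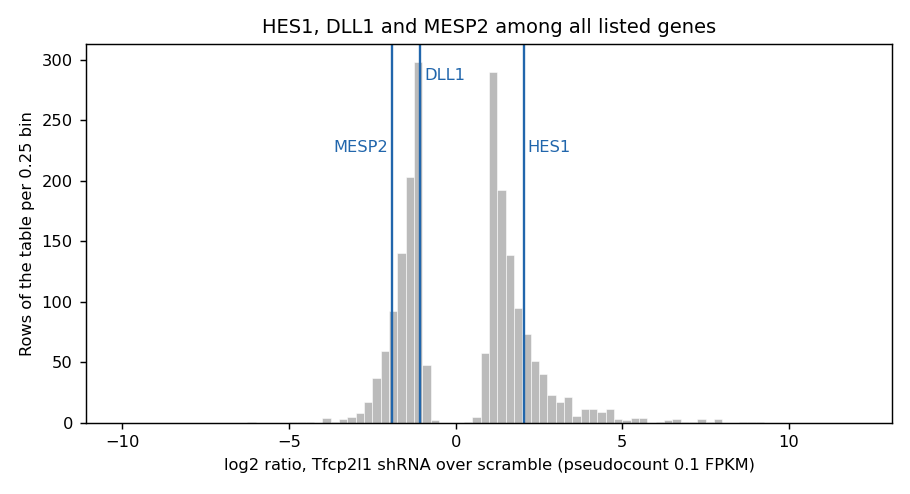
Log2 ratios of all 2005 listed genes, knockdown over scramble, with a pseudocount of 0.1 FPKM (horizontal axis; bars count genes per bin of 0.25), with lines at MESP2, DLL1 and HES1. HES1 at 2.04 lies beyond the commonest values of the higher genes, DLL1 at -1.06 lies next to the empty middle that the authors' limit leaves, and MESP2 at -1.91 lies further out.

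The order of the 3 levels was the same in the libraries, with HES1 above DLL1 and DLL1 above MESP2, and no neighbours in this order had overlapping intervals. The distances between them differed. HES1 was at 22.0 times the DLL1 level in the knockdown library and at 2.44 times in the scramble library. DLL1 was at 10.1 times the MESP2 level in the knockdown library and at 3.85 times in the scramble library. The ratio intervals of DLL1 and MESP2 overlap, while that of HES1 lies on the other side of 1. Here and below, overlap of 2 intervals does not show that the ratios are the same, and no test between ratios was run. In the gene annotation of the authors' deposited table the 3 genes share 1 biological process, cell surface receptor signaling pathway, which 58 listed genes carry, 32 of them higher and 26 lower. HES1 and DLL1 share cell fate commitment as well, with 7 genes higher and 7 lower.

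HES1 was 1 of 11 HES, HEY and NRARP genes on a list of 59 Notch pathway genes, and 4 of these 11 had a row. They went in both directions, 2 higher and 2 lower. Over all genes tested, 10.8% were listed, 5.86% as higher and 4.98% as lower. HES3, a relative of HES1, was at 5.66 FPKM in the knockdown library, against 2.10 FPKM in the scramble library (read ratio 2.70, interval 1.77 to 4.23). HEY2, a repressor known from heart and artery development, was at 9.35 FPKM in the knockdown library, against 23.4 FPKM in the scramble library (read ratio 0.401, interval 0.363 to 0.442). HEYL, a further member of the HEY family, was at 1.04 FPKM in the knockdown library, against 2.33 FPKM in the scramble library (read ratio 0.447, interval 0.348 to 0.571). HES1 and HES3 were thus higher, with overlapping ratio intervals, and HEY2 and HEYL lower, also with overlapping intervals.

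The most abundant of these 4 targets was not the same in the libraries. HES1 made up 66.1% of their summed level of 47.4 FPKM in the knockdown library, against 21.3% of 35.4 FPKM in the scramble library. HEY2 made up 19.7% in the knockdown library and 66.2% in the scramble library. HEYL made up 2.20% in the knockdown library and 6.59% in the scramble library, and HES3 the rest. The 7 targets with no row are outside these shares.

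The windows of HES3, HEY2 and HEYL also hold the RBPJ core, although HES3 was higher and the HEY genes were lower. Stretches of 30 bases around each match are shown to compare them with the HES1 sites above, all turned so that the core reads TGGGAA (capitals). They lie at GRCh38.p14 chr1:6244053-6244082, minus strand (HES3), chr6:125749407-125749436, minus strand (HEY2), chr1:39639804-39639833, plus strand (HEYL, distal) and chr1:39639725-39639754, minus strand (HEYL, proximal).
HES3: gggaggacgcacTGGGAAgctccccacctc
HEY2: ccagccgaggcgTGGGAAcgcggccgcgga
HEYL distal: gccgccgagccgTGGGAAggccctaggcgg
HEYL proximal: aggaaagggcccTGGGAAagggcggtggcg

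The HES3 match lies 114 to 109 bases before its start and the HEY2 match 213 to 208 bases before its start. The matches of HEYL lie 178 to 173 and 99 to 94 bases before its start. These are RefSeq starts. GENCODE v29 starts HEY2 and HEYL further upstream, so their sites lie inside the GENCODE spans of these genes. In HEY2 and in the distal HEYL site the longer form GTGGGAA is present, as in the first HES1 site. RBPJ core matches stood before listed targets of either direction. Of the other windows searched, that of NEURL1, not a HES or HEY gene, held the core 1 time. Those of DLL4, LFNG, RBPJ, MAML3, FOXC1 and EPHA4 did not hold it.

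Among the other components of the pathway, the ligands and the DNA-binding factor were lower, and a receptor-modifying enzyme and a co-activator were higher. DLL1 and DLL4 were the listed ligands of 5, and both were lower, where 4.98% of all genes tested were listed as lower. DLL4, a ligand known from blood vessels, was at 0.03 FPKM in the knockdown library, against 0.27 FPKM in the scramble library, on 2 and 21 reads in that order. Its read ratio was 0.0985 (interval 0.0112 to 0.403), an interval that overlaps that of DLL1. Of 6 endothelium markers, 3 had a row (DLL4 itself, TIE1 and TEK) and all 3 were lower. With DLL4 counted, that is 50% of the list, against 4.98% of all genes tested listed as lower. Because DLL4 is part of this share, the share is not independent of the DLL4 value. The 3 levels summed to 1.44 FPKM (knockdown) and 6.69 FPKM (scramble), of which DLL4 gave 0.03 and 0.27 FPKM in that order. Apart from DLL4, the read ratios were 0.194 for TIE1 (interval 0.153 to 0.242) and 0.363 for TEK (interval 0.246 to 0.528). The part of endothelial cells in the DLL4 value was not tested. In RNA from whole cultures, fewer cells of a type and less RNA per cell cannot be told apart.

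RBPJ, the DNA-binding partner of the cut receptor, was at 17.7 FPKM in the knockdown library, against 36.8 FPKM in the scramble library. Its read ratio was 0.484 (interval 0.461 to 0.509), so it was 2.07-fold lower, near the limit of the table, and 4.14% of its words occur in other genes, its pseudogenes among them. HES1 was above RBPJ in the knockdown library, at 1.76 times its level, and below it in the scramble library, at 0.205 times. MAML3, a Mastermind co-activator, was at 6.62 FPKM in the knockdown library, against 2.51 FPKM in the scramble library (read ratio 2.64, interval 2.36 to 2.97). This interval lies wholly below that of HES1.

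LFNG, a Fringe enzyme that adds sugars to Notch receptors and changes which ligands they answer to, was at 18.1 FPKM in the knockdown library, against 4.90 FPKM in the scramble library. Its read ratio of 3.70 (interval 3.22 to 4.26) overlaps that of HES1. NEURL1, a ubiquitin ligase of the Neuralized family, which in the fly acts on Notch ligands, was at 1.99 FPKM in the knockdown library, against 5.96 FPKM in the scramble library (read ratio 0.335, interval 0.283 to 0.395). None of the 4 receptors, 11 receptor-processing genes, 3 non-canonical ligands and 6 co-repressors on the list had a row. NEURL1 (1 of 12 endocytosis and ubiquitin regulators) and LFNG (1 of 3 Fringe genes) stood alone in their groups. Of all genes tested, 10.8% were listed. HEY2, HEYL, NEURL1, MAML3 and the segmentation gene EPHA4 each overlap an annotated antisense gene in GENCODE v29, and MAML3 also overlaps the protein-coding gene MGST2 on the opposite strand. The strand setting of the counts is not known, so these 5 levels are uncertain.

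In all, 10 of the 59 pathway genes (16.9%) were listed, 4 higher (6.78%) and 6 lower (10.2%). Over all genes tested, 10.8% were listed, 5.86% as higher and 4.98% as lower. The median log2 ratio over the 10 was -1.06, against 1.01 over all 2005 listed genes, of which 54.1% were higher and 45.9% lower. No listed gene is less than 2-fold apart by the authors' ratio, so the sign of such a median follows which direction holds more genes. The distance between these medians is therefore no measure of a shift of the pathway. The median of the 10 was -0.50 when the pseudocount was 1 FPKM. The list was written with earlier results of these data known, and no count here is a test. With the counting interval required to lie wholly beyond 2-fold, 3 of the 10 were higher (HES1, LFNG and MAML3). By the same rule 3 of the 10 were lower (DLL4, NEURL1 and HEY2). DLL1 did not pass that rule, and MESP2, outside the pathway list, did. By that rule 37.8% of all listed genes were higher and 26.6% lower.

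**Figure D3:**
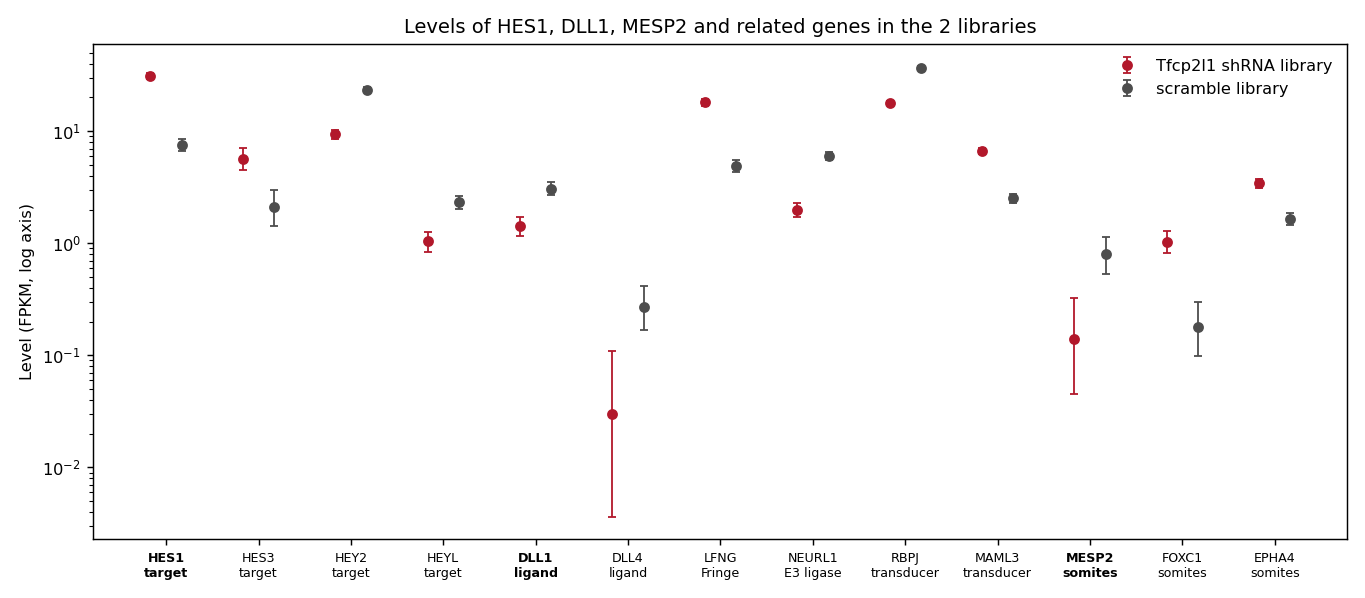
Levels (FPKM, log axis) of HES1, DLL1 and MESP2 (bold) and the other listed Notch pathway and somite segmentation genes in the knockdown library (red, left of each pair) and the scramble library (grey), with exact 95% counting intervals as bars. HES1 at 31.3 FPKM is the highest of the plotted genes in the knockdown library, and RBPJ at 36.8 FPKM is the highest in the scramble library.

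The segmentation genes around MESP2 were mostly without a row. Of 20 genes of somite formation, 5 were listed (25%), 3 higher (15%) and 2 lower (10%), with MESP2 and DLL1 as the lower ones. Over all genes tested, 10.8% were listed, 5.86% as higher and 4.98% as lower. At 1 FPKM or more in a library and 2-fold with a pseudocount of 0.1 FPKM, 3 of them were higher and 1 lower, against 40.8% and 35.4% of all listed genes. When that pseudocount was 1 FPKM, 1 was higher and 0 were lower, against 27.2% and 18.2% of all listed genes. FOXC1, a forkhead factor needed for somites in the mouse, was at 1.03 FPKM in the knockdown library, against 0.18 FPKM in the scramble library (read ratio 5.91, interval 3.33 to 11.3). EPHA4, an Eph receptor found at forming somite borders in the mouse, was at 3.43 FPKM in the knockdown library, against 1.65 FPKM in the scramble library (read ratio 2.08, interval 1.78 to 2.43). LFNG, given above, was the other higher gene. The median log2 ratio over these 5 was 1.01, which is that of EPHA4 and lies at the median of all listed genes. As for the pathway median, its sign follows which direction holds more genes. None of 9 markers of presomitic and paraxial mesoderm, TBX6 and MSGN1 among them, had a row.

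Markers of other cell types differed between the libraries beside these values. All 9 primitive streak markers with a row, of 10 on the list, were higher, with a summed level of 902 FPKM in the knockdown library and 36.9 FPKM in the scramble library. All 8 definitive endoderm markers were higher as well, at a summed 958 FPKM in the knockdown library and 8.53 FPKM in the scramble library, where SOX17 was at the floor of 0.01 FPKM. Of 7 neural progenitor markers, NES had a row, at 252 FPKM in the knockdown library and 95.9 FPKM in the scramble library. As shares of their lists, 90% (streak), 100% (endoderm) and 14.3% (neural) were higher, against 5.86% of all genes tested. MESP2, which belongs to the segmentation list, was lower while those streak markers were higher. The streak marker without a row was MESP1, the neighbour and relative of MESP2, so nothing can be said of it. The part of such cells in the levels of HES1, DLL1 and MESP2 was not tested.

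**Figure D4:**
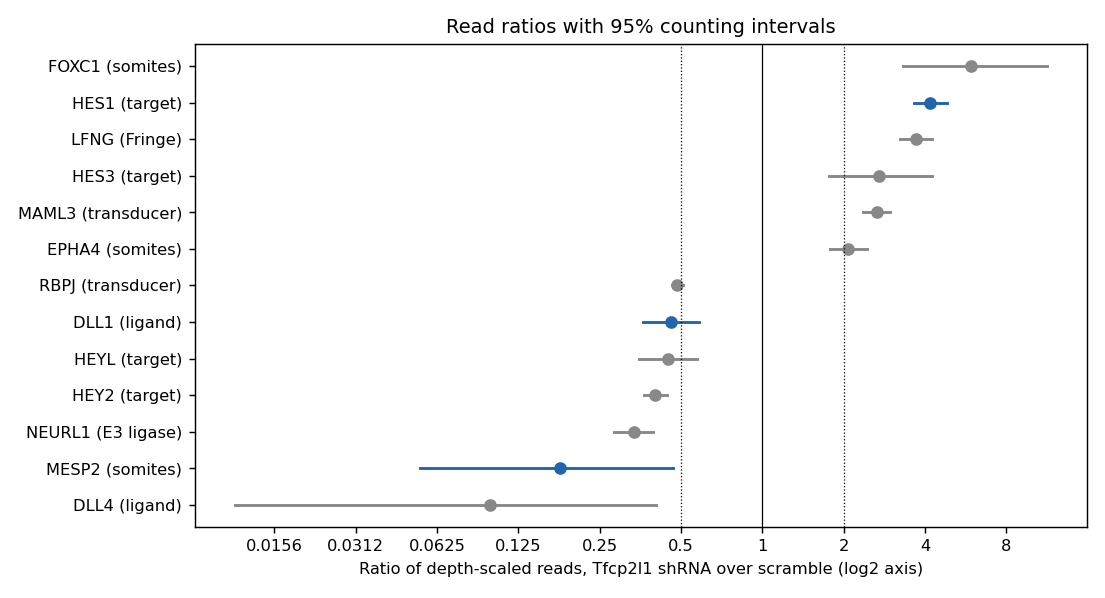
Ratios of depth-scaled reads, knockdown over scramble (log2 axis), with exact 95% counting intervals, for HES1, DLL1 and MESP2 (blue) and the other listed Notch pathway and segmentation genes (grey), the dotted lines marking 2-fold. The HES1 interval (3.63 to 4.82) overlaps those of FOXC1, LFNG and HES3, and the DLL1 interval (0.363 to 0.581) overlaps those of RBPJ, HEYL, HEY2, NEURL1, MESP2 and DLL4.

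The genes nearest to each member over both libraries were found by the distance between their log2 levels. HES1 was nearest to TCL1B, at 29.7 FPKM in the knockdown library and 8.15 FPKM in the scramble library (distance 0.138 on the log2 scale), and then to KCNG1 (0.209) and SULF2 (0.273). DLL1 was nearest to ZHX1-C8orf76 (0.0469), BTBD11 (0.0501) and PLEKHA2 (0.0563), with knockdown levels of 1.47, 1.38 and 1.43 FPKM in that order. MESP2 was nearest to IL21R, at 0.14 FPKM in the knockdown library and 0.77 FPKM in the scramble library (0.0489), and then to NR4A3 (0.132) and IRAK2 (0.152). With 2 libraries such a distance describes the levels alone.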

How the data were processed

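Per the labels' protocols, total RNA of 2 libraries was read on the BGISEQ-500 platform. The submitters' processing notes name hg19 and Bowtie 0.12.2. No counter, strand setting, filter or test is named there. The table the authors deposited holds levels that its header calls expression and that were read as FPKM (lowest value 0.01), and, per the file headers, a log2 ratio, a p-value and a false discovery rate for each gene. Its largest rate is 0.000990.

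The number of genes tested was inferred from the p-values and rates, and reads from the levels, lengths and p-values (Audic and Claverie's test, within 0.0002 on the natural log of p). A single pair of whole reads was found for 1201 of 1926 genes with a p-value above 0, HES1, DLL1 and MESP2 included. For the others, LFNG, RBPJ, HES3 and HEY2 among them, reads were estimated from the level. Depths were set from 534 genes, and 67 bases were taken off each length. On a simulated table of all 2005 genes, 100% of single pairs were those drawn, and 94.5% of the intervals of 200 changed genes held the true ratio. The simulation used the same depths and formula for p as the inference, and no 2-fold limit on the genes. It therefore does not show how the intervals do for genes picked by that limit. Intervals are exact (Clopper-Pearson for ratios, Poisson for levels) and hold counting error alone, because without molecular identifiers several reads can stem from 1 molecule. No p-value was computed.

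The genes and lists were chosen with earlier results of these data known. Named were HES1, DLL1 and MESP2, TFCP2L1, listed members of the Notch, segmentation and proneural lists, cell type markers beside them, and the 3 nearest genes of each member. Alternatives were other pseudocounts (0.01 and 1 FPKM), a minimum of 0.5 or 1 FPKM, the authors' own ratio and the read ratio. Sequences are from RefSeq (GRCh38.p14), where 12 of 13 listed Notch and segmentation genes, all but DLL1, were matched to a promoter, and the reads were aligned to another build. Python 3.11.15, scipy 1.17.1, numpy 2.4.6, pandas 2.3.3 and matplotlib 3.10.9 were used.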

Additional observations from a re-analysis of the deposited data

How the results depend on the processing

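HES1 (log2 ratio 1.92 to 2.06), DLL1 and MESP2 had the same direction under every pseudocount, in the authors' deposited ratio and in the read ratio. A pseudocount of 1 FPKM moved DLL1 to -0.75 and MESP2 to -0.66, as its construction does at low levels, the Notch pathway median to -0.50 and the segmentation median to 0.74. With 1 FPKM or more in a library and 2-fold at that pseudocount, 4 of the 10 listed pathway genes were higher and 3 lower. Of the 5 listed segmentation genes 1 was higher and 0 were lower. Of all listed genes, 27.2% were higher and 18.2% lower by that rule. At the pseudocount of 0.1 FPKM 1 of the 5 segmentation genes was lower, against 35.4% of all listed genes. With the counting interval wholly beyond 2-fold, 3 of the 10 pathway genes and 1 of the 5 segmentation genes were lower. By that rule 26.6% of all listed genes were lower. The cause of these moves was not tested beyond the settings' own construction. No paired analysis was possible because each group has 1 library. MESP2 and DLL4 rest on 5 and 2 knockdown reads, so depth limits their size, and RBPJ and DLL1 lie near the table's limit of 2-fold.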

Other observations

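ATOH1, a proneural bHLH factor whose mouse counterpart is repressed by HES1 in the inner ear, was the 1 listed gene of 8 proneural factors. That is 12.5% of them, near the 10.8% listed over all genes tested. It was at 0.09 FPKM in the knockdown library, on 2 reads, and at 0.94 FPKM in the scramble library, on 22 reads (read ratio 0.0940, interval 0.0107 to 0.382).

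RBPJ shared 4 annotation groups of the authors' deposited table with HES1, DLL1 or MESP2, which were picked out after the values were seen, and 54.1% of all listed genes were higher. Somitogenesis was given to 7 listed genes. DLL1 and RBPJ were lower and the other 5, of the WNT pathway (DKK1, WNT3A, LEF1, ROR2 and AXIN2), were higher. Determination of bilateral symmetry had 8 genes, 6 higher and 2 lower, again DLL1 and RBPJ. Anterior/posterior pattern specification had 14 genes, 12 higher and 2 lower, MESP2 and RBPJ. The group shared with HES1, negative regulation of transcription from the RNA polymerase II promoter, had 46 genes, 31 higher, HES1 among them, and 15 lower, RBPJ and HEY2 among them.

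Near MESP2 on chromosome 15, the neighbouring gene ANPEP, 6135 bases away in GENCODE v29 and singled out after its value was seen, went the other way, at 4.21 FPKM in the knockdown library and 1.78 FPKM in the scramble library (read ratio 2.37, interval 1.96 to 2.88). MESP1, 9281 bases from MESP2, had no row. The same held for CPN2, the nearest protein-coding neighbour of HES1, and FAM120B, which overlaps DLL1.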
